A study of Homo sapiens with 6 samples.

Results

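Ribosome footprints, the pieces of mRNA that a translating ribosome protects from nuclease, were examined for the ZNF zinc finger genes of chromosome 19. Of 20289 genes in the table, 250 had a symbol of ZNF followed by a digit and lay on chromosome 19 of GRCh38. Of these, 194 were chosen by their level, with at least 1 FPKM (fragments per kilobase of gene model, scaled to the depth of the library) in at least 3 of the 6 libraries. The libraries came from RKO, a human colorectal cancer cell line. In 3 of them the cells carried a control hairpin (ShControl, cell type given as WT), and in the other 3 a hairpin against TRMT6 (ShTRMT6, the knockdown), a subunit of a tRNA methyltransferase. Both groups therefore carried a short hairpin RNA, and the labels do not say whether the lines were clones or pools, how long the hairpin was present, or that the libraries came from separate cultures, so that a p-value here speaks of library-to-library spread alone. A footprint level combines the amount of mRNA with the number of ribosomes on it, and these values do not separate them.

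The family is built on the C2H2 zinc finger, a short unit in which a pair of cysteines and a pair of histidines hold a zinc ion and which, repeated in tandem, reads DNA sequence. Many members also carry a KRAB domain at the start of the protein. It binds TRIM28 (KAP1), which brings in the histone methyltransferase SETDB1 and the HP1 proteins, and many KRAB zinc finger proteins repress transposable elements in this way. The genes lie in clusters on chromosome 19 that grew by tandem duplication, so neighbours are often similar in sequence.

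That similarity bears on how a footprint can be assigned to a gene, so the first finger-coding stretch of 4 members is shown, from the spliced coding sequence in GENCODE 29 (GRCh38), 5′ to 3′. Capitals mark the codons of the zinc-binding residues, in the order Cys, Cys, His, His. ZNF677 and ZNF112 had the largest log2 fold changes, ZNF432 had the highest mean level, and ZNF146 is the member whose knockdown values all lay below its control values. 
ZNF677: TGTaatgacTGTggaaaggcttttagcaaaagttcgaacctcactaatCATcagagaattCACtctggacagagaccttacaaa
ZNF112: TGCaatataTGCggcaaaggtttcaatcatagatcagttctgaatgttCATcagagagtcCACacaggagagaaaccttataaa
ZNF432: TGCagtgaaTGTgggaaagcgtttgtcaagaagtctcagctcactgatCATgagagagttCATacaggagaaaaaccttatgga
ZNF146: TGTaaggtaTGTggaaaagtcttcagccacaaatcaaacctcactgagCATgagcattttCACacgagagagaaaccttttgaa
All 4 keep the same spacing of the zinc-binding codons, and the stretch after the last histidine codes for the linker to the next finger. A linker, with the histidine codon before it and the cysteine codon after it, makes up the stretch of 28 nt that the most members had in common, printed here because it is close to the length of a footprint.
shared stretch: tcatactggagagaaaccttacaaatgt
It occurred in the coding sequence of 24 of the 194 members and in a transcript of 39 genes of the table. Of the 57 stretches of 28 nt within each finger shown above, 57 in ZNF677, 57 in ZNF432, 57 in ZNF146 and 53 in ZNF112 occurred in no other gene of the table. Each stretch was looked up in every GENCODE 29 transcript of the other genes, untranslated parts included. Over the whole coding sequence, the median member had 87.1% of its stretches in no other gene.

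The level rule used the measured values, so it was checked for what it left out. Of the 56 chromosome 19 ZNF genes outside it, 27 were listed at 0 in every library, 22 had the higher mean in the knockdown and 7 in the control. Over all 250 genes, expressed or not, 199 had the higher mean in the knockdown, 24 in the control, and 27 were equal. The same counts were not made over all genes of the table. The median of all genes that met the level rule also rose (log2 fold change 0.39). The counts therefore do not show whether the rule favoured genes that rose. Of the 194 members, 164 had at least 1 FPKM in all 6 libraries, and 170 in all 3 control libraries. ZNF586 and ZNF829 met the rule through the 3 knockdown libraries alone, and 0 members through the control libraries alone; a member that enters in that way had to differ between the groups. The lowest members by mean were ZNF547, with 1.04, 0 and 0.50 FPKM under the control hairpin and 1.20, 0.79 and 4.27 FPKM after knockdown, and ZNF829, with 0.21, 0 and 0 FPKM against 1.05, 2.02 and 1.08 FPKM. Just outside lay the readthrough locus ZNF625-ZNF20, with 0.93, 2.46 and 0.91 FPKM against 0, 0.96 and 1.06 FPKM, and ZNF404, with 0.19, 0.95 and 0.48 FPKM against 0.45, 1.20 and 1.21 FPKM.

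TRMT6 itself checks the labels. It had 57.6, 58.4 and 95.3 FPKM under the control hairpin and 20.7, 21.9 and 24.1 FPKM after knockdown, with no overlap (log2 fold change of FPKM + 1 of -1.58, SE 0.27, adjusted p = 0.00301 by limma over 11566 tested genes). From the steps between low values, the libraries held an estimated 2577000 to 4049000 reads on coding sequence, and 11879 to 12730 genes had a value above 0, with the 3 knockdown libraries the highest. Of 8 epithelial markers, KRT18 (97.1 to 216 FPKM), EPCAM (12.1 to 31.6), KRT8 (6.45 to 39.6) and CDX2 (10.3 to 21.0) were present in every library, KRT19 and KRT20 reached 1.52 and 0.57 FPKM at most, and CDH1 and VIL1 were listed at 0 throughout. The 6 markers of blood, stromal, endothelial, muscle and liver cells reached at most 0.70 FPKM. Control replicate 2 was the control library closest to the knockdown libraries, with Pearson's r of log values across genes of 0.909 to 0.923 against 0.936 to 0.964 among the control libraries. It also held the highest control value of 103 of the 194 members, against 49 for replicate 1 and 42 for replicate 3.

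Footprints on the chromosome 19 ZNF genes were more abundant in the knockdown, and none of the 194 members was called lower. By limma at an adjusted p under 0.05, 96 members (49.5%) were called higher and 0 lower, where 26.5% of all tested genes were called higher and 9.04% lower. The 96 include ZNF586 and ZNF829, which the level rule had already set apart. Of the 170 members with at least 1 FPKM in all 3 control libraries, 86 (50.6%) were higher, beside 25.4% of the 10545 tested genes of which the same was true. At an unadjusted p under 0.05, 108 members were higher and 1, ZNF580, was lower. The share of all tested genes at that threshold was not counted, so these 2 numbers are a description alone. All 3 knockdown values lay above all 3 control values in 108 members, where 37.0% of all tested genes did so, and below them only in ZNF146, where 14.3% of all tested genes did so. The 96 called members had log2 fold changes from 0.96 to 5.81, of which 92 were above 1 and 38 above 2.

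The member median of the log2 fold change was 1.07 (interquartile range 0.48 to 1.79), beside 0.39 over all tested genes, so part of the rise in FPKM was shared by the median tested gene. The library sums of FPKM did not rise with it, at 1463344 to 1760307 in the control and 1531873 to 1582826 in the knockdown. Relative to that shift, 150 members lay above the median of all tested genes and 44 below it. With each library scaled to its median gene, the all-gene median became -0.09 and the member median 0.60, and 63 members were called higher and 2 lower, beside 12.5% and 19.5% of all tested genes. With the trends of level and coding length removed in each library, the member median was 0.45 beside -0.06, and 50 members were higher and 2 lower, beside 13.2% and 13.3%. Quantile normalization gave 54 higher and 5 lower, beside 13.9% and 14.7%. Of the 96 calls, 45 held under all 4 of the other scalings, and 59 held when any 1 of the 6 libraries was left out.

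The summed level showed the same order in each library. The 194 members together had 2031, 2608 and 1759 FPKM under the control hairpin and 6202, 5309 and 6950 FPKM after knockdown. The lowest knockdown sum was thus above the highest control sum, which was that of replicate 2. Group means of the sum were 2133 ± 434 FPKM in the control and 6154 ± 822 FPKM in the knockdown (SD, n = 3 each), a ratio of 2.89. As a percentage of all FPKM in the library, the members took 0.1154, 0.1502 and 0.1202% in the control and 0.396, 0.335 and 0.454% in the knockdown. The median member had 6.12, 8.58 and 6.57 FPKM against 15.5, 15.4 and 17.2 FPKM, a ratio of group means of 2.26, while the median of all tested genes went from 23.3 ± 1.49 to 32.8 ± 0.572 FPKM, a ratio of 1.41. These are low values: the median member rested on an estimated 36.3 to 43.8 reads in a control library and 75.2 to 99.95 in a knockdown library. The number of members listed at 0 was 3, 5 and 6 in the control and 0, 3 and 0 in the knockdown.

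**Figure D1:**
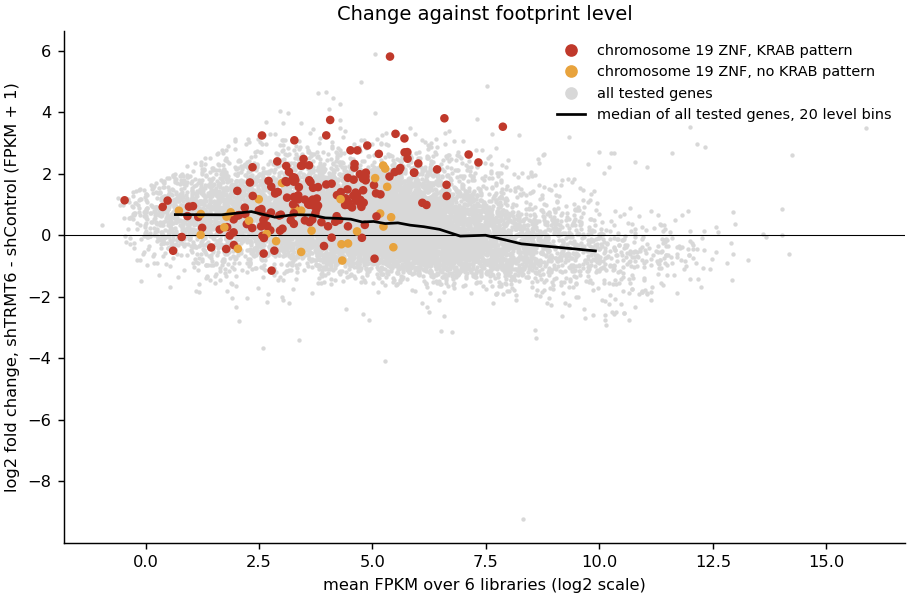
Change of each tested gene (vertical axis, log2 fold change of FPKM + 1, ShTRMT6 minus ShControl) against its mean FPKM over the 6 libraries (horizontal axis, log2 scale). Chromosome 19 ZNF genes are red with a KRAB pattern and orange without one, all tested genes are grey, and the line is the median of all tested genes in 20 bins of level; the red points lie mostly above it at mid levels, with ZNF677 at the top at 5.81.

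The plot of change against level shows that the difference from other genes was not even. The members were divided into 3 groups of like size by mean level. In the lowest (0.727 to 8.04 FPKM) the median log2 fold change was 0.61 and 18.5% were called higher, beside 0.67 and 24.3% of all tested genes in that range, so the members were near the background there. In the middle range (8.10 to 21.9 FPKM) the medians were 1.17 and 0.60 and the shares called higher 54.7% and 33.1%. In the highest range (22 to 234 FPKM) they were 1.81 and 0.30, and 75.4% and 27.8%. The mean over 6 libraries contains the knockdown values, which places members with large increases in the upper ranges. By coding length, the shares called higher were 43.1%, 51.6% and 53.8% from the 65 shortest to the 65 longest members, beside 19.8%, 31.5% and 36.3% of tested genes in the same length ranges.

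The largest increase was in ZNF677 (ENSG00000197928, minus strand of chromosome 19, 53235381 to 53254898 in GENCODE 29, GRCh38), a KRAB zinc finger gene with 10 fingers. It had 2.29, 0 and 0 FPKM under the control hairpin and 71.8, 81.3 and 95.6 FPKM after knockdown. It was thus listed at 0 in 2 control libraries, while its 3 knockdown values lay close together. The log2 fold change was 5.81 (SE 0.46, adjusted p = 0.000333), a value that depends on the pseudocount of 1 because the control level is near 0.

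ZNF112 (44326555 to 44367217, minus strand) followed, with 15.8, 12.3 and 6.28 FPKM in the control and 221, 82.0 and 238 FPKM in the knockdown. Knockdown replicate 2 was the lowest of its group and still lay above all controls (log2 fold change 3.80, SE 0.45, adjusted p = 0.000875). ZNF432 (52031379 to 52095738, minus strand), the member with the most footprints per length, had 26.9, 60.0 and 27.7 FPKM against 401, 333 and 557 FPKM. Its lowest knockdown value was far above its highest control value, that of replicate 2 (log2 fold change 3.53, SE 0.34, adjusted p = 0.000552). ZNF701 had 0, 6.59 and 0.58 FPKM against 34.04, 19.01 and 40.47 FPKM, and its highest control was again replicate 2 (3.75, SE 0.67, adjusted p = 0.00359).

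Of the other 4 of the 8 largest increases, ZNF586 had 0, 0.85 and 0 FPKM against 14.4, 14.9 and 5.45 FPKM. It was a member through its knockdown values alone, so its separation follows from the rule and its log2 fold change of 3.24 is a description. ZNF552 had 9.26, 27.6 and 2.71 FPKM against 110, 76.2 and 87.6 FPKM, also without overlap (3.15, SE 0.60, adjusted p = 0.00471). The groups did overlap in the remaining pair. ZNF525 had 51.1, 2.10 and 1.40 FPKM against 81.9, 87.2 and 49.3 FPKM, so that control replicate 1 was above knockdown replicate 3 (3.30, SE 0.96, adjusted p = 0.0248). ZNF461 had 0.43, 11.6 and 0 FPKM against 29.8, 10.4 and 42.6 FPKM, with control replicate 2 above knockdown replicate 2 (3.25, SE 0.87, adjusted p = 0.0178). The calls of ZNF525 and ZNF461 were lost in 7 and 5 of 16 other settings.

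**Figure D2:**
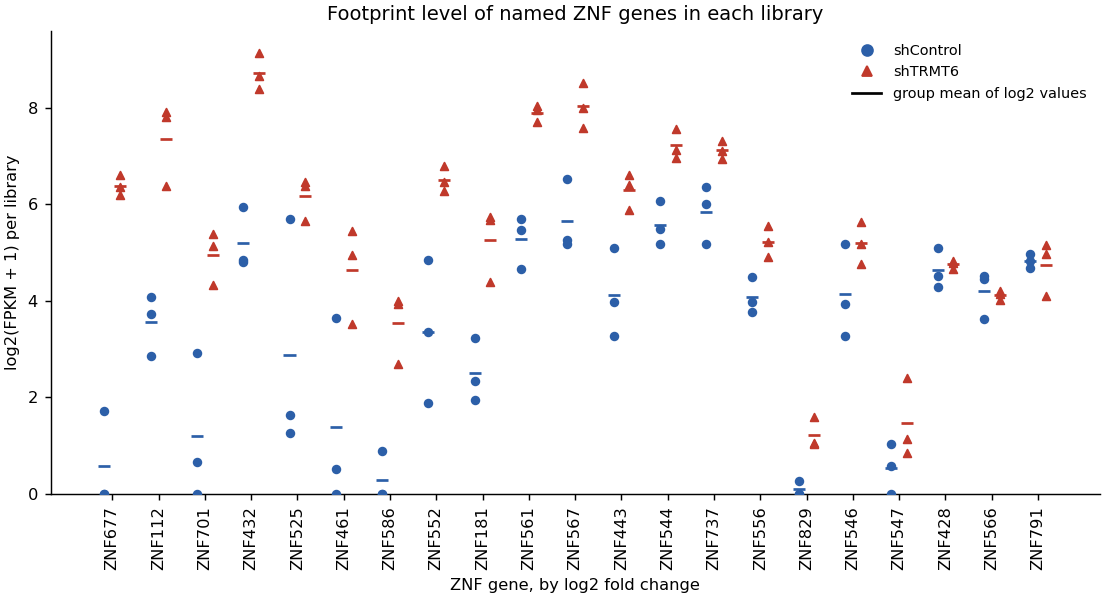
Footprint level, as log2(FPKM + 1), of the named members in each library, ordered by log2 fold change; circles are ShControl, triangles ShTRMT6 and short lines the group means of the log2 values (3 libraries each). The groups are separate in ZNF677, ZNF112 and ZNF432 at the left, overlap in ZNF525 and ZNF461, and lie together in ZNF428, ZNF566 and ZNF791 at the right.

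Along the chromosome, ZNF genes whose starts lay under 1 Mb apart on the same arm were joined into clusters, of which 10 held at least 3 members. They are numbered here from the p to the q telomere. The median log2 fold change was above that of all tested genes (0.39) in 10 of 10 clusters, from 0.61 in cluster 10 to 1.87 in cluster 8. The p arm held 69 members, of which 33 (47.8%) were higher with a median of 1.01, and the q arm 125, of which 63 (50.4%) were higher with a median of 1.14. The arms thus differed little. Cluster medians varied more, but some rest on few members, which alone widens their spread, and no test was made. Of 179 pairs of neighbouring members, 96 had the same call. Since 49.5% of members were called higher, many pairs would match in any order, so this count does not show that neighbours agreed. Clusters also differed in level: the median of the mean FPKM was 8.26 and 9.53 in clusters 3 and 10, and 27.4 and 16.3 in clusters 8 and 9. In cluster 1 it was 7.55, with 60% of members called higher. The part of level was not tested.

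**Figure D3:**
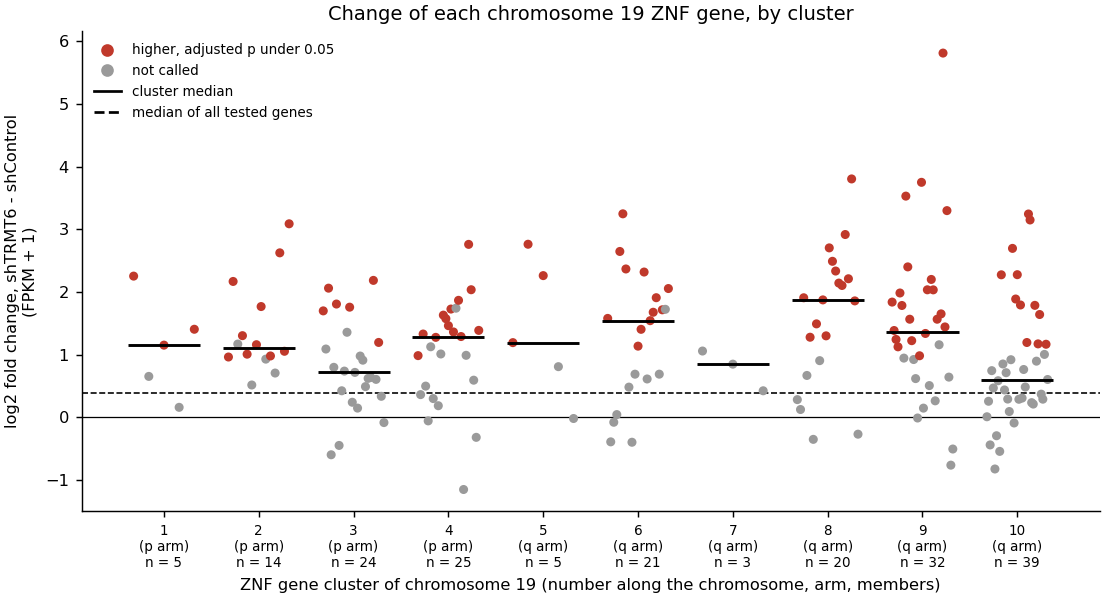
Log2 fold change of FPKM + 1 (ShTRMT6 minus ShControl) of each member, by cluster number from the p to the q telomere. Red points were higher at an adjusted p under 0.05 and grey points were not called. Bars are cluster medians, and the dashed line is the median of all tested genes, 0.39. Clusters 8 and 9 hold many red points above 2, and clusters 3 and 10 are mostly grey. The medians of clusters 3 and 10 fell to -0.05 once trends of level and length were removed, beside -0.06 over all tested genes.

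Cluster 1 (2.8 to 2.9 Mb, 5 members, all with a KRAB pattern) had 3 members higher. ZNF556, its most abundant member, had 21.3, 14.7 and 12.6 FPKM against 45.9, 28.9 and 36.2 FPKM (log2 fold change 1.15, SE 0.30, adjusted p = 0.0155). The groups did not overlap, but the call was lost in 5 of 16 other settings. The summed level of the cluster was 32.12, 32.35 and 31.98 FPKM in the control and 82.5, 65.1 and 77.6 FPKM in the knockdown.

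In cluster 2 (7.1 to 9.8 Mb, 14 members), 10 members (71.4%) were higher and the summed FPKM rose from 189 ± 38.6 to 599 ± 88.9, a ratio of 3.18. ZNF561 had 24.3, 50.5 and 43.4 FPKM against 247, 207 and 262 FPKM, a difference far wider than either group (2.62, SE 0.29, adjusted p = 0.000751). The increase there was not limited to KRAB genes, since ZNF358, which lacks the KRAB pattern, had 14.1, 25.1 and 5.96 FPKM against 75.3, 51.0 and 61.8 FPKM (2.17, adjusted p = 0.00573). All 14 members had a log2 fold change above the all-gene median, the lowest being ZNF699 with 0.52.

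Cluster 3 (11.5 to 12.6 Mb, 24 members, 22 with the KRAB pattern) was near the background in the share called higher. In it 6 members (25%) were higher and 0 lower, beside 26.5% and 9.04% of all tested genes. Its median was 0.73, beside 0.39 over all tested genes. It became 0.25 with median scaling, beside -0.09, and -0.05 with the trends removed, beside -0.06. ZNF443 was the most abundant member, with 14.7, 32.9 and 8.68 FPKM against 83.6, 57.6 and 96.4 FPKM (2.18, SE 0.43, adjusted p = 0.00526). In the same cluster, ZNF791 was not called, with 30.2, 27.3 and 24.7 FPKM against 30.4, 16.2 and 34.6 FPKM (-0.08, SE 0.32, adjusted p = 0.859), and the groups overlapped. ZNF490, of similar level, had 23.9, 30.8 and 20.7 FPKM against 34.5, 26.8 and 34.1 FPKM (0.34, adjusted p = 0.338).

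Cluster 4 (19.7 to 24.1 Mb, 25 members) is next to the centromere of the p arm, and 13 of its members (52.0%) were higher. ZNF737 led it in level, with 63.4, 80.3 and 35.3 FPKM against 137, 122 and 158 FPKM (1.28, SE 0.31, adjusted p = 0.0115). ZNF91, known as a repressor of SVA retrotransposons and the member with the most fingers (32), had 5.44, 11.7 and 2.51 FPKM against 49.1, 33.6 and 50.3 FPKM. Its lowest knockdown value was above its highest control value (2.76, adjusted p = 0.00242). ZNF93, known as a repressor of LINE-1 elements, had only 0.89, 1.68 and 1.86 FPKM against 4.75, 0 and 1.25 FPKM. At this low level the groups overlapped and it was not called (-0.05, adjusted p = 0.953). ZNF675, reported as a partner of the signalling adaptor TRAF6, had 23.1, 33.7 and 14.1 FPKM against 97.9, 123 and 70.1 FPKM (2.04, adjusted p = 0.00289). ZNF257 had the lowest log2 fold change of all members, -1.15, but its values were scattered, with 8.67, 17.0 and 1.86 FPKM against 2.90, 0 and 10.7 FPKM (adjusted p = 0.333).

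On the q arm, cluster 5 (34.7 to 35.0 Mb, 5 members) had 3 members higher. ZNF181 had 4.02, 8.36 and 2.87 FPKM against 19.9, 52.4 and 49.7 FPKM (2.76, SE 0.45, adjusted p = 0.00256). ZNF599 and ZNF181 were both lowest in replicate 1 of the knockdown, and the cluster's knockdown sums spread widely, at 61.0, 113 and 136 FPKM beside 28.3, 36.3 and 25.5 FPKM in the control.

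Cluster 6 (36.2 to 37.8 Mb, 21 members) had 12 higher (57.1%) and the second highest cluster median, 1.54. ZNF567 had 35.4, 91.0 and 37.4 FPKM against 191, 252 and 362 FPKM, and control replicate 2 was well above the other controls (2.37, SE 0.38, adjusted p = 0.00244). ZNF529 had 8.21, 12.4 and 6.75 FPKM against 62.3, 48.7 and 73.2 FPKM (2.65, adjusted p = 0.000826). ZNF420, described elsewhere as a negative regulator of p53 activity, had 9.26, 14.01 and 6.55 FPKM against 32.3, 13.9 and 42.5 FPKM, with knockdown replicate 2 at the level of control replicate 2 (1.41, adjusted p = 0.0303). ZNF566 was close to 0 in change, with 20.8, 21.8 and 11.3 FPKM against 15.1, 17.4 and 16.6 FPKM (-0.08, adjusted p = 0.866).

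The same cluster holds ZNF146, a gene whose protein consists almost wholly of zinc fingers and which lacks the KRAB pattern. It had 48.7, 41.8 and 60.4 FPKM in the control and 36.3, 39.3 and 37.7 FPKM in the knockdown. No other member had all knockdown values under all control values, yet the difference did not pass (log2 fold change -0.39, adjusted p = 0.226). With median scaling it was -0.87 and with quantile normalization -0.79, and it was called lower in both (adjusted p = 0.0257 and 0.0348).

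Cluster 7 (40.0 to 40.1 Mb) had 3 members, of which limma called 0 in either direction, and at an unadjusted p under 0.05 only ZNF546 was higher. ZNF546 had 14.2, 35.3 and 8.70 FPKM against 35.0, 26.1 and 48.6 FPKM (1.06, SE 0.46, adjusted p = 0.0981), and control replicate 2 lay above knockdown replicate 2. Without control replicate 2 the log2 fold change was 1.58 and was called (adjusted p = 0.00997).

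Cluster 8 (43.5 to 45.1 Mb, 20 members) had the highest median, 1.87, and 14 members (70.0%) were higher. The summed FPKM was 290, 369 and 225 in the control and 1150, 844 and 1274 in the knockdown, a ratio of means of 3.70. Besides ZNF112, ZNF224, described elsewhere as a transcriptional repressor with a role in Wilms tumour and leukaemia cells, had 20.3, 11.9 and 10.6 FPKM against 97.6, 89.8 and 97.0 FPKM (2.70, adjusted p = 0.00073). ZNF234 had 14.3, 21.6 and 26.3 FPKM against 135, 78.4 and 111 FPKM (2.33, adjusted p = 0.00117), and ZNF226, ZNF225 and ZNF227 rose by log2 2.14, 2.49 and 2.10. None of these overlapped between the groups. The 4 members of the cluster without a KRAB pattern divided, with ZNF180 higher (1.86, adjusted p = 0.00917) and ZNF428, ZNF576 and ZNF296 not called. ZNF428, which has a single finger match, had 33.2, 21.7 and 18.5 FPKM against 24.4, 27.2 and 26.7 FPKM (0.13, adjusted p = 0.749; -0.35 with median scaling).

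Cluster 9 (51.6 to 53.6 Mb, 32 members, 31 with the KRAB pattern) held ZNF677, ZNF701, ZNF432 and ZNF525, and 21 of its members (65.6%) were higher. Its summed FPKM went from 342 ± 91.9 to 1296 ± 184, the widest ratio of the 10 clusters at 3.79. A large part of that rise was in ZNF432 alone, whose group mean went from 38.2 to 430.5 FPKM. ZNF350 (ZBRK1), a KRAB protein that binds BRCA1, had 10.9, 12.6 and 7.15 FPKM against 49.2, 36.9 and 41.8 FPKM (1.98, adjusted p = 0.00172). ZNF808, a gene linked to pancreas development, changed less, with 12.47, 13.97 and 14.76 FPKM against 22.4, 32.6 and 30.2 FPKM (0.98, adjusted p = 0.0187), and its groups were also separate. ZNF331, an imprinted gene, had 2.21, 1.11 and 2.50 FPKM against 0.53, 1.96 and 0.84 FPKM (-0.50, adjusted p = 0.37). ZNF761 varied more between libraries of a group than between groups, with 4.94, 74.08 and 50.01 FPKM against 52.1, 6.92 and 10.1 FPKM (-0.76, adjusted p = 0.556).

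Cluster 10 (55.5 to 58.5 Mb), nearest the q telomere, is the largest with 39 members and had the lowest median, 0.61. It became 0.13 with median scaling, -0.06 with quantile normalization and -0.05 with the trends removed. The medians of all tested genes were then -0.09, -0.04 and -0.06. In it 12 members (30.8%) were higher, close to the 26.5% of all tested genes. ZNF544 was the most abundant, with 66.2, 43.9 and 35.0 FPKM against 188, 124 and 139 FPKM (1.64, SE 0.29, adjusted p = 0.00334). ZNF548 had 5.36, 24.1 and 14.7 FPKM against 72.1, 73.4 and 124 FPKM (2.69, adjusted p = 0.00317), without overlap. The 11 members of the cluster without a KRAB pattern gave 1 call, ZNF329 (1.17, adjusted p = 0.0317). ZNF580 had 33.8, 25.7 and 18.7 FPKM against 12.94, 18.96 and 10.94 FPKM, where knockdown replicate 2 was just above control replicate 3 (-0.82, SE 0.32, adjusted p = 0.0711). It was called lower with median scaling (-1.30, adjusted p = 0.0139), under quantile normalization (-1.40, adjusted p = 0.0123) and once level and length trends were removed (-0.98, adjusted p = 0.0278).

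**Figure D4:**
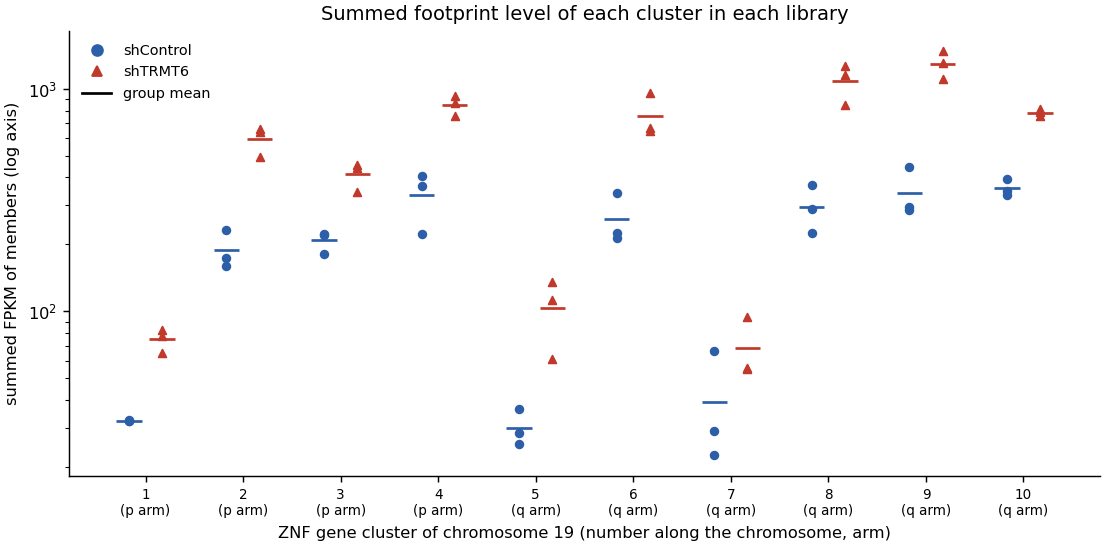
Summed FPKM of the members of each cluster in each library (log axis), by cluster number from the p to the q telomere; circles are ShControl, triangles ShTRMT6 and lines the group means (3 libraries each). The groups are separate in 9 clusters and overlap in cluster 7. The widest ratio of means is 3.79 in cluster 9, where a large part of the rise was in ZNF432.

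Outside these clusters, ZNF473, whose protein takes part in the processing of histone mRNA ends, had 16.4, 12.2 and 9.01 FPKM against 63.3, 68.4 and 56.8 FPKM (2.27, adjusted p = 0.000996). ZNF333, alone at 14.7 Mb, had 1.22, 7.13 and 1.43 FPKM against 15.6, 16.7 and 25 FPKM (2.48, adjusted p = 0.0057). Both were separate between groups. ZNF507, ZNF526, ZNF574 and ZNF114 were not called, with log2 fold changes of 0.80, 0.83, -0.19 and -0.50.

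A protein pattern of the KRAB domain was found in 165 members, of which 90 (54.5%) were higher with a median of 1.17, and not in 29, of which 6 (20.7%) were higher with a median of 0.59. Over all tested genes the share was 26.5% and the median 0.39, so the members without the pattern were near the background in share; the difference between the 2 kinds of member was not tested. The 6 were ZNF358, ZNF653, ZNF714, ZNF180, ZNF473 and ZNF329. Members without the pattern also had another base composition, with a median of 70.6% G or C at the last codon position beside 37.9% in members with it and 58.3% in all tested genes, and the part of either feature was not tested. A missing match says only that the pattern was not found in the coding model used. The number of fingers, from 0 to 32 with a median of 12, went with little change in the share called higher, which was 49.3%, 52.2% and 46.7% in members with 0 to 10, 11 to 14 and 15 to 32 fingers.

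Shared sequence makes the values of single paralogs uncertain. Of the 85 members with at least 90% of their stretches of 28 nt in no other gene, 41 (48.2%) were higher, and of the 18 with under 50%, 8 (44.4%). ZNF320 and ZNF468 are such a pair: every stretch of the ZNF320 coding model occurred in some transcript listed under ZNF468, although only 7.27% of them occurred in the ZNF468 coding model, and both were higher, with log2 fold changes of 2.03 and 2.20. ZNF417 and ZNF587 shared 79.3% of ZNF417's stretches. ZNF587 was higher (1.79, adjusted p = 0.00478) and ZNF417 was not called (0.90, adjusted p = 0.224). ZNF585A and ZNF585B also split, with 2.32 (adjusted p = 0.00788) and 0.61 (adjusted p = 0.429). Of the 8 largest increases, ZNF525, ZNF552 and ZNF701 had 60.2%, 54.1% and 63.8% of their stretches in no other gene. ZNF525 shared 18.1% with ZNF761, which had 4.94, 74.08 and 50.01 FPKM against 52.1, 6.92 and 10.1 FPKM. The control library with the highest ZNF525 value thus had the lowest ZNF761 value. Whether reads were divided differently between them was not tested. How the authors divided reads among such copies is not given in the sources used here, and these single values are uncertain for that reason. The readthrough locus ZNF559-ZNF177 was higher (1.77) but all its stretches occur in transcripts of ZNF177, which was not called (0.93, adjusted p = 0.15).

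ZNF genes of other chromosomes were compared next. Of 212 that met the level rule, 106 (50%) were higher and 1 lower, and the median change was 1.06 on the log2 scale. Their summed FPKM went from 4416 ± 749 to 9719 ± 837, a ratio of 2.20 beside 2.89 for the chromosome 19 members. The other 695 tested genes of chromosome 19 had 198 higher (28.5%), 54 lower and a median of 0.48. In both count and median the chromosome 19 members lay nearer to ZNF genes elsewhere than to the other genes of their chromosome, though no test of these differences was made.

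Genes for proteins of KRAB-linked repression were called at about the background rate. Of 36 listed genes, 10 were higher (beside 26.5% of all tested genes), 3 lower (beside 9.04%) and 23 not called. Their median was 0.64 on the log2 scale, beside 0.39 over all tested genes. With median scaling 6 were higher and 4 lower, beside 12.5% and 19.5% of all tested genes, and with each library expressed as a share of its sum 14 were higher and 2 lower, beside 30.1% and 8.25%. TRIM28, which the KRAB domain binds directly, had 158, 132 and 340 FPKM in the control and 179, 253 and 183 FPKM in the knockdown. Control replicate 3 was the highest of all 6, and the groups overlapped (0.08, adjusted p = 0.879; -0.40 with median scaling). SETDB1, which places the repressive mark on histone H3, had 20.7, 30.5 and 16.8 FPKM against 40.0, 39.6 and 46.7 FPKM (0.90, adjusted p = 0.0311). It lost its call in 7 of 16 other settings, among them median scaling, where the log2 fold change was 0.42.

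The 3 lower genes were the 3 that encode HP1 proteins, readers of that histone mark. CBX3 (HP1 gamma) had 976, 948 and 1210 FPKM against 597, 508 and 520 FPKM (-0.94, adjusted p = 0.00708). CBX5 (HP1 alpha) had 140, 139 and 202 FPKM against 94.37, 74.96 and 85.22 FPKM (-0.89, adjusted p = 0.0163), and CBX1 (HP1 beta) had 182, 200 and 211 FPKM against 146, 120 and 109 FPKM (-0.67, adjusted p = 0.0334). All 3 had every knockdown value below every control value, as did 14.3% of all tested genes. MTA2, on the same list, was separate in that direction too but was not called by limma (-0.60, adjusted p = 0.109). CBX1 was the least stable, losing its call in 8 of 16 other settings (adjusted p up to 0.168), while CBX3 lost its call in 2 and CBX5 in 3. With the trends of level and length removed, none of the 3 HP1 genes was called by limma. The log2 fold changes were then -0.44 for CBX1 (adjusted p = 0.168), -0.44 for CBX3 (adjusted p = 0.146) and -0.74 for CBX5 (adjusted p = 0.0791). Among the 10 higher genes were MTA1, a subunit of the NuRD deacetylase complex (1.90, adjusted p = 0.00142), EHMT1, a histone H3 methyltransferase (1.47, adjusted p = 0.00175), and the NuRD helicases CHD4 and CHD3. The remaining ones were ATRX, DNMT3A, MORC2, DNMT1 and DAXX.

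**Figure D5:**
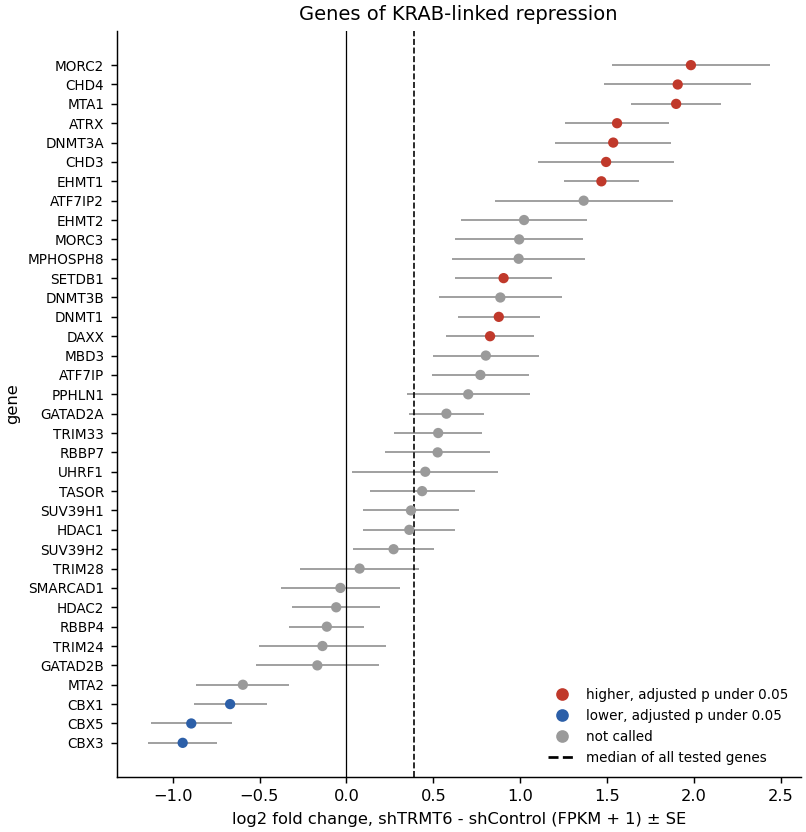
Log2 fold change of FPKM + 1 (ShTRMT6 minus ShControl, horizontal axis) of 36 genes of KRAB-linked repression, with bars of 1 SE from limma (3 libraries per group). Red was higher and blue lower at an adjusted p under 0.05, grey was not called, and the dashed line is the median of all tested genes, 0.39; the 3 HP1 genes CBX1, CBX5 and CBX3 form the lower end.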

How the data were processed

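Per the labels' protocols, lysates of RKO cells were treated with nuclease, protected fragments were purified over size exclusion columns, and small RNA libraries were prepared. The authors deposited 1 table of FPKM per gene, with 2 decimals. Tools listed in the submitters' processing notes are fastp, STAR and RSEM. Their versions, the genome build, the annotation, the use of strand and the division of reads among similar genes were not given in the sources used here. Columns named NC were read as ShControl and SH as ShTRMT6, by name, which no label spells out; 0 columns were left unassigned.

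Symbols were matched for 19705 of 20289 identifiers. Positions, coding sequences, finger matches and the KRAB pattern (338 of 19556 coding models matched, 4 outside zinc finger and KRAB families) were taken by identifier from GENCODE 29 on GRCh38, which held 20171 of them; a table of RefSeq proteins was not used here. The test was limma 3.58.1 (R 4.3.3) on log2(FPKM + 1) and its trended eBayes, for the 11566 genes that reached 1 FPKM in 3 or more libraries, with calls at a Benjamini-Hochberg adjusted p under 0.05. It was also tested on simulated data with independent noise and planted changes in both directions. Those lack the general shift and the level and length trends of these libraries, so they do not show how the test performs here. Every fold change refers to log2(FPKM + 1), which makes the change of a low gene look smaller than it is. FPKM holds no counts; the value of 1 read was estimated from steps between low values (68.3 to 73.7% of them within 0.1 of a whole number of reads), so no count test was run. Clusters joined starts under 1 Mb apart, with the arms divided at 26.2 Mb.

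The members, gene lists and tests were chosen with earlier results of these data known. Named genes were TRMT6, TRIM28, SETDB1 and up to 2 further corepressors called each way with the smallest p, the most abundant member of each cluster, the 8 largest called changes each way, the 3 abundant members nearest to 0, and the genes at the level threshold; all others were named after their values were seen. Python 3.11.15, pandas 2.3.3, numpy 2.4.6 and matplotlib 3.10.9 were used.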

Additional observations from a re-analysis of the deposited data

How the results depend on the processing

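With median scaling, quantile normalization and removal of level and length trends, 63, 54 and 50 members were higher, 2, 5 and 2 lower, and the member median was 0.60, 0.47 and 0.45; all of the 63, 54 and 50 were among the 96. Leaving out 1 library gave 64 (without ShTRMT6 replicate 3) to 99 members higher, 0 to 2 lower (2 without ShControl replicate 2, ZNF441 and ZNF444) and a member median of 1.01 to 1.21. Corepressor genes called higher numbered 6 with median scaling, 4 with trends removed and 6 (without ShControl replicate 1 or ShTRMT6 replicate 3) to 17 (without ShControl replicate 3) with 1 library left out. Those called lower numbered 1 with trends removed, which was not an HP1 gene, and 1 (without ShTRMT6 replicate 2 or 3) to 3 with 1 library left out. Cluster medians were above the all-gene median in 6 of 6 clusters joined at 2 Mb, in 10 of 11 joined at 0.5 Mb and in 9 of 10 with quantile normalization. The log2 fold change of TRMT6 was -1.35 to -1.70 with 1 library left out. Among the genes named by rule, 42 values lost their call, in 8 genes (CBX3, CBX5, SETDB1, ZNF461, ZNF525, ZNF556, ZNF737 and ZNF829), 1 gained a call (ZNF546) and 386 kept theirs or stayed without one. Genes named after their values were seen are not in these counts. Of those, CBX1 lost its call in 8 of 16 settings, and ZNF146, ZNF580, ZNF441 and ZNF444 were called lower in some. Among the genes named by rule, no called value changed sign, but 12 values of 4 genes that were not called did (TRIM28, ZNF428, ZNF566 and ZNF791). The cause was not tested.

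With the replicate number as a block, 98 members were higher and 0 lower, 94 of them among the 96, and corepressors were 15 higher and 3 lower. ZNF829 lost its call there (adjusted p = 0.0805). Over all other settings in which it was tested, ZNF829 lost its call in 11 and kept it in 3. Same-numbered libraries deviated together with r of 0.01, 0.01 and 0.10, and control replicate 1 correlated best with knockdown replicate 2 (0.13). No effect shared by same-numbered libraries was thus visible. With 3 libraries per group these values cannot decide whether the samples were paired, and the labels do not state it. Depth limits the lowest members, which rest on few reads.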
